A study of Drosophila melanogaster with 4 samples.

Results

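Hairy-bound regions were followed along the left arm of chromosome 3 (3L) of Drosophila melanogaster, one of the large arms of the fly genome, from its telomere at base 1 towards the centromere. The regions were the peaks of a deposited chromatin immunoprecipitation and sequencing (ChIP-seq) list whose midpoint lay on 3L at or below 21500000 on Release 5 of the genome, which leaves out the end of the arm next to the centromere. There were 1315 such peaks of 8958 in the whole list and of 1519 on the arm. The series comprises 2 Hairy ChIP libraries with 2 libraries of input DNA, all from whole embryos of unrecorded sex. The strain, labelled Y cn bw sp, carried in both groups the alleles y[1], cn[1], bw[1] and sp[1], along with lab[R4.2], CG33964[R4.2], oc[R3.2], Rh6[1], LysC[1], Gr22d[1], GstD5[1], Gr22b[1] and MstProx[1]. The embryos were labelled 0 to 8 h, although the collection protocol speaks of a laying of 8 to 16 h. Hairy was precipitated with KW3-h-D1, a rabbit polyclonal antiserum against part of the protein. The list is one for the whole series and carries no value per library, so no value below has a replicate error and no test was run. The read depth is unknown, and a stretch without a peak is one where nothing passed the authors' threshold.

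Hairy is a repressor with a basic helix-loop-helix domain, related to the proteins of the Enhancer of split complex. As a product of a pair-rule gene it is made in stripes of the early embryo, where it helps to divide the body into segments, and it works by bringing the corepressor Groucho to DNA. It is known for acting over long distances, so that bound sites need not lie next to the promoter they silence. The arm carries the hairy gene itself and many developmental genes with wide flanking sequence. A short list of 14 genes with such roles was drawn from this arm, so it does not show how rich the arm is in them. A RefSeq table of Release 6 places all 14 on 3L. Besides hairy, listed there as hry, they are the helix-loop-helix inhibitor emc, the Iroquois homeobox genes ara, caup and mirr, the gap gene kni and its paralogue knrl, the Sox gene D, the POU gene vvl, the EGF receptor pathway genes rho and aos, the sensory organ gene sens, the Wingless inhibitor nkd and the tracheal gene trh. That table is of another build than the peaks, so no peak was assigned to a gene, and peaks are named by their Release 5 position.

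Hairy peaks were found along the whole stretch but gathered in some parts of it. They numbered 61.2 per Mb and covered 639 kb, or 2.97%, of the 21500 kb. The first peak began at base 97781. In adjacent windows of 100 kb, counted by midpoint, the 215 windows held a mean of 6.12 peaks and a median of 5, with quartiles of 3 and 9 and a highest count of 24. Of these windows 48 held 10 or more peaks, and together they held 616 of the 1315 peaks (46.8%). A further 95 windows held 4 to 9 peaks, 57 held 1 to 3, and 15 held none. The fullest 53 windows (24.7%) were enough to hold 50% of the peaks. Counts of neighbouring windows were weakly related, with a Spearman rho of 0.20 over 214 neighbouring pairs, which share 1 list and adjoining chromatin.

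**Figure D1:**
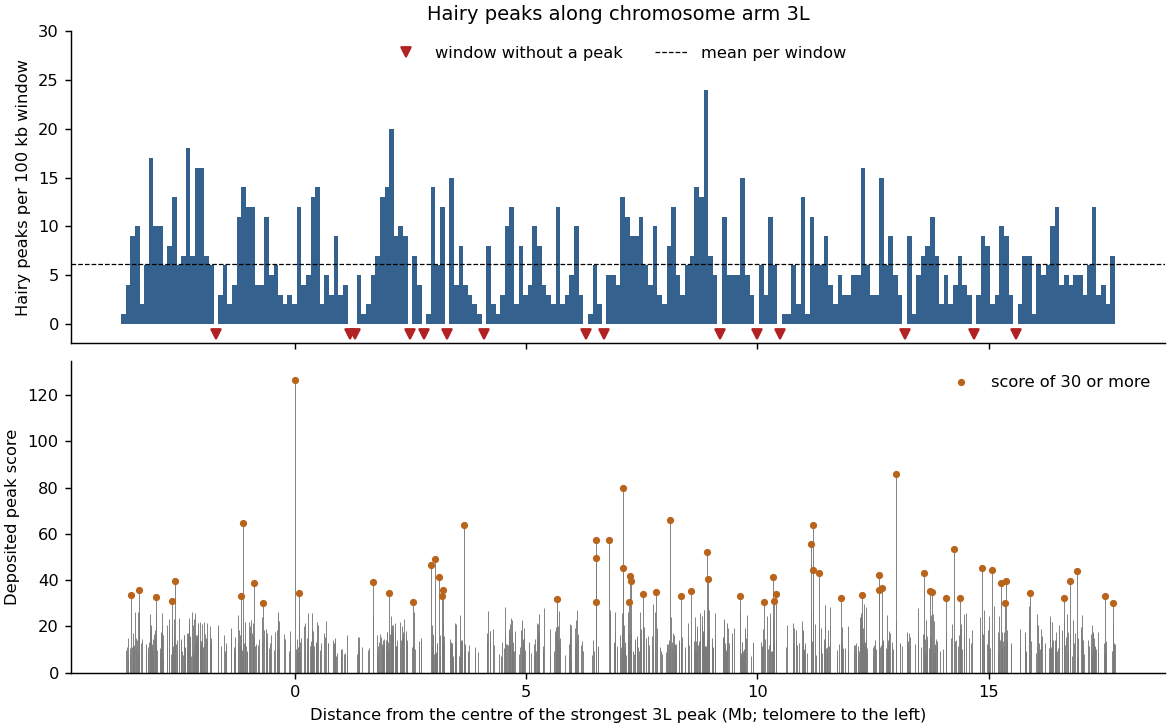
The upper panel plots the number of Hairy peaks in each 100 kb window of 3L, with the mean as a dashed line and triangles under windows without a peak, and the lower panel plots the deposited score of each of the 1315 peaks, with dots on scores of 30 or more. The horizontal axis is the distance in Mb from the centre of the strongest peak. The fullest window holds 24 peaks, the 15 empty windows are scattered, and the strongest peak, at 126.46, stands in a window of 2.

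Within the stretch, Hairy peaks were most numerous in the second Mb from the telomere, while the first 100 kb window held 1 peak. The second complete 1 Mb block, 3L:1000001-2000000, held 104 peaks, and none of its 100 kb windows held fewer than 6. Peaks covered 5.40% of this block, against a median of 2.93% over the 21 complete blocks. The next fullest blocks were 3L:12000001-13000000 with 84 peaks, 3L:5000001-6000000 with 76 and 3L:1-1000000 with 75. The emptiest were 3L:18000001-19000000 with 43 peaks and 3L:7000001-8000000 with 45, of which the latter had the lowest covered share, 1.88%. Over the 21 blocks the count was 61.3 ± 14.9 (SD between blocks, not an error of measurement). By steps of 5 Mb from the telomere, the counts were 357, 291, 315 and 264. Blocks within the first step were uneven, with only 52 peaks in 3L:3000001-4000000 and 58 in 3L:4000001-5000000. The incomplete block after the last complete one held 28 peaks, or 56.0 per Mb.

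Peak number and peak strength did not follow the same profile. The score is the authors' own value, on a scale the list does not name, and is compared only within the list. Block medians of the score ran from 12.0 to 16.1, and the highest belonged to the block with fewest peaks, 3L:18000001-19000000. The richest block, the second, had a median of 12.7 and a highest score of 39.54. Over the 200 windows with a peak, the number of peaks and the median score had a rho of 0.10.

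**Figure D2:**
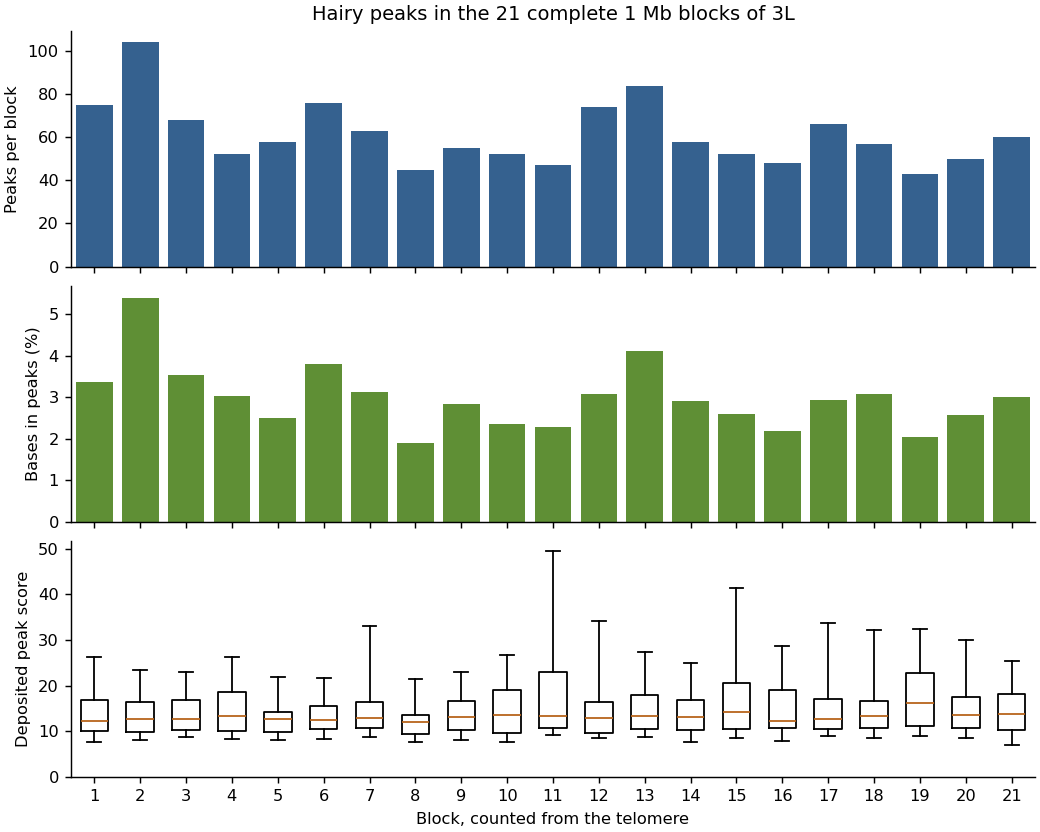
For each of the 21 complete 1 Mb blocks of 3L, counted from the telomere, bars give the number of Hairy peaks (top) and the percentage of bases inside peaks (middle). Boxes (bottom) give the median and quartiles of the deposited score with whiskers at the percentiles 5 and 95. Block 2 is highest in number (104) and in cover (5.40%), while block 19 has the highest median score (16.1) and the fewest peaks (43).

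The densest window of the stretch was 3L:12600001-12700000, with 24 Hairy peaks that covered 11.4% of it. They ran over 88.4 kb, from 12602456 to 12690827, with gaps of 77 bp to 17.7 kb and a median gap of 1.76 kb. The window had an uneven build. From 12602456 to 12665633 lay 19 peaks with scores of 6.60 to 27.26 and a median of 11.7. No gap between them exceeded 10 kb, and they were the longest group joined by that distance in the stretch. After the 17.7 kb gap followed 5 peaks within a few kb, among them the 2 strongest of the window, at 12685478 to 12687047 (1570 bp wide, score 52.30) and at 12689353 to 12690827 (1475 bp, 40.40). Peaks at or above the upper quartile of the whole list, 18.47, numbered 5 of the 24.

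The next densest window, 3L:5800001-5900000, had fewer peaks, 20, but the highest cover of the stretch at 12.2%. Its peaks scored higher as a rule, with a median of 16.2 against 12.6 in the densest window, and 8 of the 20 reached 18.47. The widest and strongest of them, at 5802729 to 5804872, was 2144 bp wide with a score of 34.69 and stood 22.0 kb apart from the next. A core of 15 peaks then filled the 34.4 kb from 5826898 to 5861340, where peaks covered 25.5% of the sequence, against 12.2% in the window as a whole. None of those 15 scored above 24.62. The core was thus made of many middling peaks and no strong one.

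**Figure D3:**
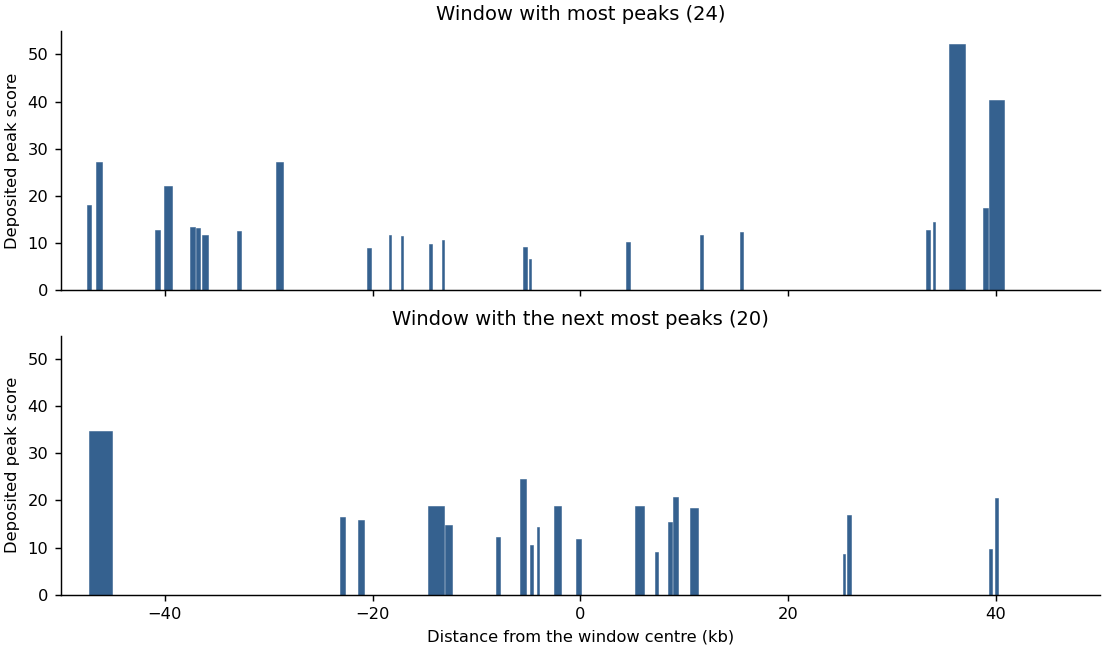
Each bar is a Hairy peak in the densest 3L window (24 peaks, top) or the next densest (20 peaks, bottom), drawn at its distance in kb from the window centre, as wide as the peak and as high as its deposited score. The 2 peaks of 52.30 and 40.40 stand at the right end of the upper window, and the peak of 34.69 at the left end of the lower one, apart from the other peaks of that window.

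Other dense windows lay on both sides of these. The one ranked 3 by count, 3L:1400001-1500000, held 18 peaks, followed by 3L:600001-700000 with 17. Windows of 16 peaks were 3L:1600001-1700000, 3L:1700001-1800000 and 3L:16000001-16100000, and windows of 15 were 3L:7100001-7200000, 3L:13400001-13500000 and 3L:16400001-16500000. Weak peaks filled some of them. In 3L:7100001-7200000 the highest score was 14.51 and the median width 263 bp, and in 3L:13400001-13500000 the highest score was 16.97. In 3L:16400001-16500000 the highest was 42.15, and 3 peaks reached 30. The 48 windows with 10 or more peaks fell into 34 runs, of which 9 spanned 2 or more windows. The longest run, 3L:2500001-2900000, held 49 peaks over 4 windows, and the run 3L:12400001-12700000 held 51 over 3.

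By cover, the 2 densest windows came first again, in the opposite order. They were followed by 3L:1700001-1800000 with 9.13%, 3L:1100001-1200000 with 8.52% from 13 peaks, 3L:6700001-6800000 with 8.11% from 14, 3L:1400001-1500000 with 8.01%, 3L:16000001-16100000 with 8.01%, 3L:1600001-1700000 with 7.98%, 3L:8400001-8500000 with 7.61% from 12 and 3L:2800001-2900000 with 7.40% from 12. Windows ranked high by cover but lower by count were those that held a wide peak, such as the 2968 bp peak that starts at 1099031 and the 2542 bp peak that starts at 6783550.

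Long stretches without a Hairy peak made up much of the stretch. Between the 1315 peaks lay 1314 gaps with a median of 5.76 kb, quartiles of 1.26 and 17.7 kb and a mean of 15.8 kb. Gaps of 50 kb or more numbered 109 and held 45.9% of the sequence. Gaps of 100 kb or more, called deserts here, numbered 28 and held 19.8%. Among steps of 5 Mb, the first held the fewest deserts. Placed by midpoint, their number was 2, 10, 7 and 7, with 2 more beyond 20 Mb. The desert 3L:4898061-5105537 straddles the bound at 5 Mb and was counted in the second step. The 97780 bp before the first peak were not counted as a gap. Of the 15 empty windows, 2 adjoined each other, at 3L:4900001-5000000 and 3L:5000001-5100000.

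The longest desert ran over 243 kb, from 10318635 to 10561298. A peak of score 11.08 bordered it on the telomere side and one of 57.50, at 10561299 to 10562056, on the other. A second peak of 57.50 lay at 10282201 to 10282857, in a window with 3 peaks of 30 or more, so strong peaks stood on both sides of the longest empty stretch. The next deserts were 3L:14171139-14394636 (223 kb), 3L:4898061-5105537 (207 kb) and 3L:6489521-6696546 (207 kb). The second of these had weak borders, 7.85 and 7.98, and the third ended at a peak of 46.74. The remaining 6 of the 10 longest, of 181 to 195 kb, started at 7711196, 13662382, 9997138, 12844728, 18399053 and 19258231. Their border peaks scored from 7.85 to 25.93.

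Strong peaks at the border of a desert were single cases. The 56 peaks that bordered deserts had a median score of 12.2 and were 344.5 bp wide at the median, against 12.9 and 380 bp for the other 1259 members. Scores of 30 or more were found in 3 of the 56 and in 66 of the 1259. The 3 were the peaks starting at 10561299 and 6696547 and the strongest of the stretch, which followed a desert of 119 kb. These values were not tested.

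**Figure D4:**
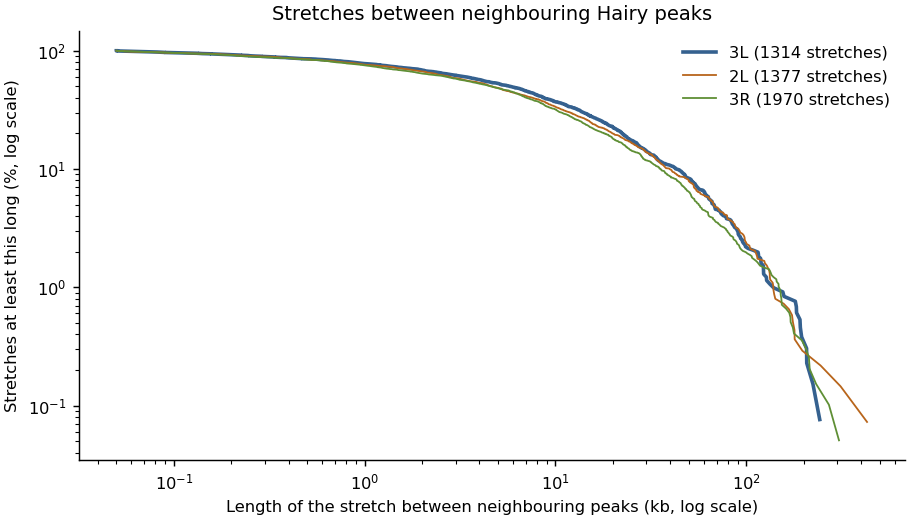
The curves give, for each length in kb on a log axis, the percentage of stretches between neighbouring Hairy peaks that are at least this long, on a log axis too, for 3L to 21500 kb (1314 stretches), 2L to 21500 kb (1377) and 3R to its last peak (1970). The curves lie close together up to about 100 kb, and the longest stretch is 243 kb on 3L, 429 kb on 2L and 306 kb on 3R.

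Between deserts the peaks formed islands of very unequal length. The 27 islands bounded by deserts on both sides had a median length of 0.317 Mb. The longest, 3L:10561299-12844727, ran for 2.28 Mb with 196 peaks (85.8 per Mb) and included the densest window at its far end. The part before the first desert, 3L:97781-1948361, held 179 peaks in 1.85 Mb, or 96.7 per Mb. Among islands of more than 10 peaks, the highest rate was 113 per Mb, in 3L:6696547-6987357 with 33 peaks. Of the 48 windows with 10 or more peaks, 3 directly adjoined an empty window. The share of all windows with a peak that adjoin an empty one is not given here, so the 3 have no like share beside them. Whether dense windows lay nearer to empty ones than other windows did was not tested. The shortest island, 3L:14394637-14403086, held 2 peaks in 8.45 kb between deserts of 223 and 128 kb.

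Few Hairy peaks stood alone. A neighbour within 10 kb, between midpoints, was found for 1106 of the 1315 peaks (84.1%, exact 95% Clopper-Pearson interval 82.0 to 86.0, which covers counting error only and takes peaks as independent). Within 1 kb the number was 329 (22.7% to 27.5% by the same interval). Only 28 peaks had no other within 30 kb and 12 none within 50 kb. The most isolated peak, at 9605643 to 9605906, had its nearest neighbour at 86.1 kb and a score of 7.69. The next were those starting at 5211905 (65.9 kb, score 10.96), 17166198 (65.0 kb, 12.37), 19983243 (64.1 kb, 12.70) and 7710839 (63.9 kb, 9.14). All 5 scored below the member median of 12.9. Isolation did not always come with a low score. The 27 peaks more than 30 kb from any other, between edges, had a median score of 11.7. Of these, 2 (7.41%) reached 30, against 5.25% of all members. The peak at 18841554 to 18841882, chosen after its values were seen, scored 44.57 with its nearest neighbour at 50.8 kb.

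At the other extreme, peaks followed each other in short chains. With gaps of at most 1 kb between edges, 508 peaks (38.6%) belonged to 216 chains. Chains of 2 numbered 162, of 3 36, of 4 15 and of 5 2, and 1 chain had 6. The chain of 6, 3L:4625836-4630088, spanned 4.25 kb with scores of only 9.85 to 15.12. A chain of 5 at 3L:10845647-10850280, of like length, held one of the strongest peaks of the stretch. Its peaks scored 9.26, 16.57, 25.73, 45.11 and 79.84 in their order along the arm, and the last 2 were 66 bp apart. The other chain of 5, 3L:1747008-1751716, scored 8.44 to 21.07. The longest chains of 4 were 3L:14745952-14750996 (scores 11.10 to 17.93) and 3L:13492502-13497388 (10.07 to 16.97). Whether such chains are separate sites or 1 bound region divided by the peak caller cannot be told apart from the list.

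The strongest Hairy peak of the 3L stretch, at 3766865 to 3769276, was 2412 bp wide with a score of 126.46. It had 1 companion in its 100 kb window, a peak of 10.13 at 3780384 to 3780634. The second, at 16762945 to 16763441, scored 85.80 in a width of only 497 bp. The third was the 79.84 peak of the chain above, at 10849104 to 10850280. These 3 were the only members among the 90 highest-scoring peaks (1%) of the whole list, where the bound was 75.31. The others of the 10 strongest were at 11868967 to 11869590 (65.90), 2632421 to 2633187 (64.90), 7428280 to 7428709 (64.06), 14962560 to 14963091 (64.06), 14918627 to 14919407 (55.75) and the pair of 57.50 on either side of the longest desert. They lay in 9 windows, which held 2 to 14 peaks with a median of 6, and 3 of the 9 held 10 or more.

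Strong peaks were spread over the arm. Scores of 30 or more were reached by 69 peaks in 54 of the 215 windows, of which 43 held 1 such peak, 7 held 2 and 4 held 3. The windows with 3 were 3L:10200001-10300000, 3L:14100001-14200000, 3L:14900001-15000000 and 3L:16400001-16500000, and the first and second of them had only 6 peaks each in all. The median distance between successive strong peaks was 202 kb. The longest distance was 2.01 Mb, between the 64.06 peak that starts at 7428280 and a peak of 31.91 that starts at 9433836. The blocks 3L:4000001-5000000 and 3L:8000001-9000000 held 58 and 55 peaks and none of that strength, while 3L:10000001-11000000 held 7 among 47.

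Most Hairy peaks were narrow. The median width was 375 bp, with quartiles of 270.5 and 591.5 bp, and the range ran from 201 to 3131 bp. Of the 1315 peaks, 426 (32.4%) were at most 300 bp wide, another 284 were above 300 and up to 400 bp, and 88 (6.69%, 5.40 to 8.18) were 1 kb or wider. The 32 peaks of 201 bp, the smallest width, had a median score of 8.83 and none above 13.71. The 88 broad peaks had a median score of 22.7. The widest peak, at 3836494 to 3839624, scored 22.87. The next widths were 2968 bp at 1099031 to 1101998 (30.81), 2666 bp at 17376934 to 17379599 (43.33), 2542 bp at 6783550 to 6786091 (49.39) and 2535 bp at 8458159 to 8460693 (22.88). Ranks 7 to 10 were held by peaks at 2869359 to 2871692, 12270656 to 12272804, 5802729 to 5804872 and 15097116 to 15099181, with scores of 38.95, 21.54, 34.69 and 42.92. Only the strongest peak, the sixth by width, was among both the 10 widest and the 10 strongest.

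Peaks of higher score were wider. In 4 classes divided at the quartiles of the score, from low to high, the median width was 260, 330, 430 and 657 bp, and no peak of the lowest class reached 1 kb against 64 of 331 in the highest. Over the 1315 peaks the Spearman rho of score and width was 0.66, a description across peaks of 1 list that share their libraries. Width varied less with position. Block medians ran from 335.5 to 438 bp, and the share of broad peaks from 1.35% in 3L:11000001-12000000 to 12.3% in 3L:17000001-18000000, where 7 of 57 peaks were broad. The median peak was 313 bp wide with a score of 12.0 in windows of 1 to 3 peaks, 387 bp with 13.1 in windows of 4 to 9, and 392 bp with 12.9 in windows of 10 or more.

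**Figure D5:**
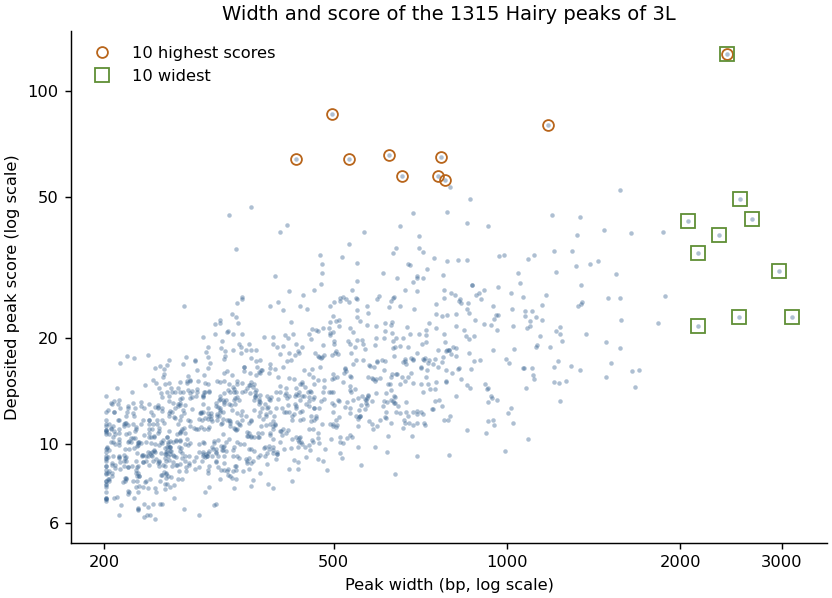
Each point is one of the 1315 Hairy peaks of 3L, by its width in bp and its deposited score, both on log axes. Circles mark the 10 highest scores, of which 9 are at most 1177 bp wide, and squares mark the 10 widest peaks, whose scores start at 21.54.

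Values of 2 other arms were set beside those of 3L. The first 21500 kb of 2L held 64.1 peaks per Mb, and 3R up to its last peak held 71.0. All peaks of 3R were used, with no part of the arm left out, so its stretch is not matched to those of 3L and 2L. Median width was 375 bp on 3L, 386 bp on 2L and 368 bp on 3R, and the median score 12.9, 12.9 and 13.0, respectively. Over the whole list the median score was 13.2. Empty windows made up 6.98% on 3L (exact 95% interval 3.96 to 11.2), 6.05% on 2L (3.26 to 10.1) and 6.50% on 3R (3.90 to 10.1). Windows of 10 or more peaks held 46.8% of the peaks on 3L, 54.7% on 2L and 59.5% on 3R, and the median gap was 5.76, 4.64 and 4.56 kb. Peaks with no other within 30 kb made up 2.13% on 3L (28 peaks), 4.28% on 2L (59) and 2.59% on 3R (51). Scores of 30 or more were reached by 5.25% of the peaks on 3L (69), 4.93% on 2L (68) and 6.14% on 3R (121), and scores at or above the upper quartile of the list by 21.3%, 20.7% and 22.6%. These last shares all lie below the one that an upper quartile sets for the whole list. The share of the whole list at 30 or more is not given here. The 90 strongest peaks of the list included 3 of 3L (0.228% of its peaks, exact 95% interval 0.0471 to 0.665), 8 of 2L (0.581%, 0.251 to 1.14) and 17 of 3R (0.863%, 0.503 to 1.38). Each share lies below the 1% of the whole list, and most of the 90 lie outside these stretches. On 3L itself, a peak left out beyond the limit scored 123.46, above the bound of 75.31. The highest cover of a 100 kb window was 12.2%, 15.2% and 33.6%. Differences between arms were not tested, since the arms are one each and the list has no replicates.

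The limit at 21500000 did not fall at a break in the peaks. The last 3 members, starting at 21472845, 21489592 and 21499732, scored 11.40, 12.92 and 12.25, and the first 3 peaks beyond, starting at 21511492, 21518145 and 21573763, scored 12.87, 9.92 and 20.84.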

How the data were processed

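A single peak list on FlyBase release 5, per the file headers, was analysed. MACS stands in the source field of its lines. The submitters' processing notes name MACS2, BWA, and CASAVA in versions 1.7.0.2 and 1.7.0.3, with the build BDGP5. Not given in the sources used here are the role of each tool, pooling, the control, the threshold and the handling of duplicate and multiply mapping reads, which decide the peaks listed and where 1 region is divided. Fixation, per the labels' protocols, was in 1.8% formaldehyde for 15 min. The deposited score of each peak was used as given. Besides the score, the authors deposited other values for each peak, a start and an end, counted from 1 with both bases included.

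Peaks were assigned to windows (100 kb) and blocks (1 Mb) by midpoint. Gaps run from the end of a peak to the start of the next. Named places are the 10 highest scores, widest peaks, densest and most covered windows and longest gaps, the 5 most isolated peaks and longest chains, the extreme blocks, and the peaks around the limit. Members, lists and rules were chosen with earlier results of these data known. The descriptions of islands, desert borders, runs of windows, groups joined over 10 kb and scores of 30 or more were added after the values were seen. The gene and motif descriptions planned for a Release 5 annotation and sequence were not run. The counting was checked on a simulated layout. Tools were Python 3.11.15 with pandas 2.3.3, numpy 2.4.6, matplotlib 3.10.9 and, for intervals and rank correlations, scipy 1.17.1.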

Additional observations from a re-analysis of the deposited data

Results flagged for a closer look

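Peaks of the arm outside the stretch described are data that its account does not use. They numbered 204 on 3L beyond 21500 kb, or 67.3 per Mb up to the last peak, with a median score of 12.4 and a highest score of 123.46. A further 31 peaks lay on 3LHet, the separate scaffold of heterochromatin of this arm, or 12.9 per Mb up to its last peak, with a median score of 15.5. They are given because they lie outside the stretch, not because their number is unusual, and the list holds no value of the input libraries to set beside them.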

How the results depend on the processing

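No paired analysis was possible because peaks were listed once for all libraries, and so no replicate could be left out. Of 27 values under alternatives, 12 stayed within their interval or within 1.5 times and 15 moved. The neighbour share, median width (360 to 392 bp), median score (12.58 to 13.23) and cover were judged by intervals, the other values by the factor of 1.5. The interval of the cover, 2.96% to 2.98%, takes each base as independent, so small changes count as moved. The tally mixes both rules and does not measure robustness. With peaks at or above the median score of the whole list only (627 of 1315), the densest window held 14 peaks and was 3L:5800001-5900000, 40 windows were empty, the longest stretch without a peak was 479 kb (7428710 to 7907585), 67.6% had a neighbour within 10 kb, the median width was 541 bp, the median score 17.6, the cover 1.88% and the rate 29.2 per Mb. Fewer and higher-scoring peaks are kept by construction. With peaks of the upper quartile of the list (280 peaks, chosen after seeing the data) the longest stretch was 1018 kb, from 4438145 to 5456037. Joining peaks within 500 bp left 1124 peaks and gave a neighbour share of 78.1%, a median width of 427.5 bp, a median score of 13.4 and a cover of 3.16%, with the same densest window (17 peaks) and the same longest stretch. The neighbour share was 68.4% at 5 kb and 93.8% at 20 kb. The place of the densest window depended on the setting: in windows of 200 kb it was 3L:1600001-1800000, with 32 peaks.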
